A study of Mus musculus with 192 samples.

Results

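What the remaining ligand adds to a pair was measured for PAM, cGAMP and CpGB in mouse bone marrow-derived dendritic cells. The 12 libraries are 3 from cells that received PAM, cGAMP and CpGB together (the triplet) and 3 for each pair within it, PAM + cGAMP, PAM + CpGB and cGAMP + CpGB. They were picked by the ligands named in their labels and make up 4 of the 64 groups, of 3 libraries each, of a series that gave 7 ligands alone, in pairs and in triplets. The 9 libraries with PAM, cGAMP or CpGB alone and the 3 control libraries, named Ctrl, are used for reference. Every group shares the rest of the treatment: marrow cells of female C57BL/6J mice aged 6 to 8 weeks were grown with GM-CSF and exposed to ligand for 6 hours. The labels name no genetic change and give no doses, so each comparison holds for 1 unstated dose per ligand. Nothing in the labels says whether the 3 libraries of a group came from separate cultures or mice. The p-values rest on the spread between libraries of the same group, estimated over all 64 groups, which may therefore be technical.

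Innate immune cells recognise microbial products through pattern recognition receptors. PAM is the common short name of synthetic lipopeptides that engage Toll-like receptors at the cell surface, and CpGB of class B CpG oligonucleotides that engage a Toll-like receptor in endosomes. Both receptor types signal through the adaptor MyD88 to NF-kB and MAP kinases and induce inflammatory cytokines. The cyclic dinucleotide cGAMP (3',3'-cGAMP in the labels) instead binds STING in the cytosol, which acts through the kinase TBK1 and the factor IRF3 to induce interferon beta. Secreted interferon beta then induces a wide set of interferon-stimulated genes.

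Each library is a table of unique molecular identifier (UMI) counts per gene. The triplet libraries held 224062 to 256520 UMIs, more than any library of the pairs: PAM + cGAMP held 128242 to 175039, PAM + CpGB 102663 to 133006 and cGAMP + CpGB 129627 to 188874. Levels are given as UMI counts per 1000000 UMIs of the tested genes, with library sizes scaled by edgeR's TMM factors (CPM), in the order of replicates 1, 2 and 3, and differences as log2 fold changes with the standard error (SE) of the edgeR quasi-likelihood fit. A gene is called higher or lower where its adjusted p was under 0.05 and its change at least 2-fold. Of 10 dendritic cell markers, summed at 7430 to 8981 CPM in the 12 libraries, Flt3 was at 0 in 3 of the 4 groups and Zbtb46 in the triplet and PAM + CpGB. Macrophage and monocyte markers summed to 10080 to 10440 CPM with PAM + CpGB and to 8322 to 8916 CPM in the triplet. Of 11 neutrophil markers 10 were listed, and they summed to 837 to 1272 CPM with PAM + CpGB and to 825 to 958 CPM in the triplet. Of these, only Elane, which encodes neutrophil elastase, was at 0 in the triplet, and only Elane and Mpo with PAM + CpGB. S100a8 was at a mean of 252 CPM in the triplet and 280 CPM with PAM + CpGB, and S100a9 at 280 and 407 CPM. All 7 NK cell and all 7 erythroid markers were at 0, and B cell, T cell, mast cell and fibroblast markers summed to at most 19.1 CPM. In bulk RNA, fewer cells of a type and less RNA per cell cannot be told apart.

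The triplet resembled the pairs that contain cGAMP and stood apart from PAM + CpGB. The root mean square log2 difference of group means from the triplet was 0.357 for PAM + cGAMP and 0.351 for cGAMP + CpGB, against 0.780 for PAM + CpGB, 0.702 for cGAMP alone, 0.658 for CpGB alone, 0.909 for PAM alone and 1.27 for Ctrl. Adding cGAMP to PAM + CpGB made 445 genes higher and 225 lower (9.43% and 4.77% of the tested genes). Adding PAM to cGAMP + CpGB made 6 higher and 3 lower (0.127% and 0.0636%). Adding CpGB to PAM + cGAMP gave no call in either direction. The pairs with cGAMP differed from each other in 25 genes, 21 higher and 4 lower with PAM + cGAMP (0.445% and 0.0847%). The 3 comparisons of the triplet share its libraries, so their errors are not independent, and their values are set side by side only.

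**Figure D1:**
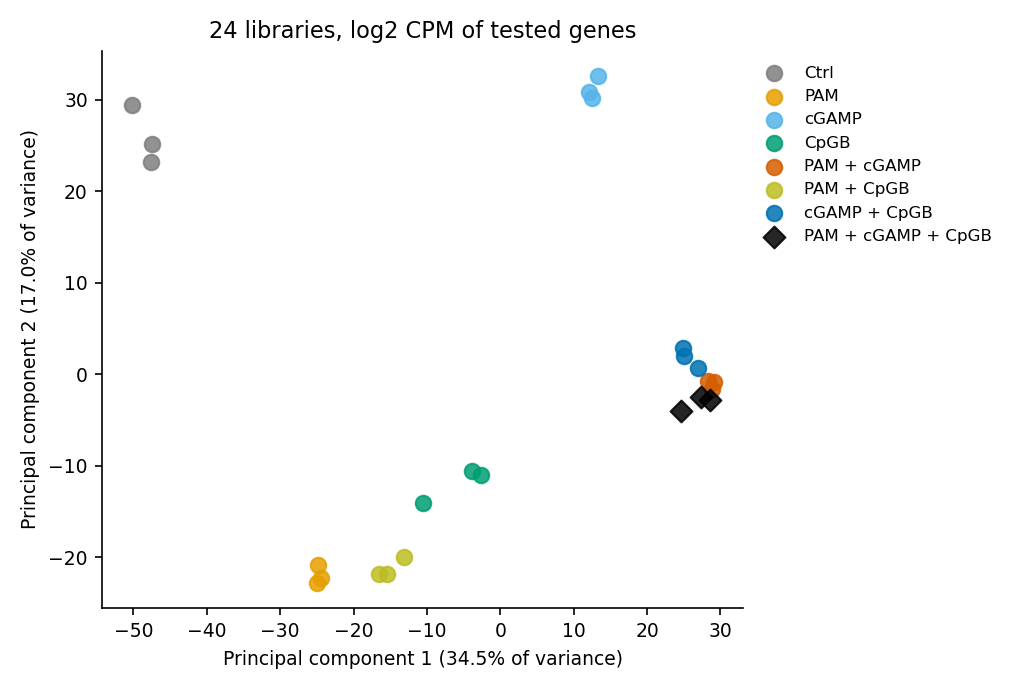
Principal components of log2 CPM for the triplet, its pairs, the single ligands and Ctrl, with 1 point per library and the share of variance on each axis. The 3 triplet libraries (24.7 to 28.6 on the first component) lie beside those of PAM + cGAMP (28.3 to 29.1) and cGAMP + CpGB (25.0 to 26.9), while PAM + CpGB (-16.6 to -13.1) lies with PAM and CpGB alone.

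The addition of cGAMP to PAM + CpGB raised every tested gene of the interferon response list and part of the cytokine and chemokine lists. Cxcl10, a chemokine for activated T cells, rose 3.85 on the log2 scale, and Ifit1, an antiviral RNA-binding protein, rose 2.71. All 15 tested members of the interferon response list were called higher, with a median log2 fold change of 2.71, against 9.43% called higher and a median of -0.03 over all genes. The range ran from 1.04 for Zbp1, a sensor of Z-form nucleic acid, to 4.03 for Oasl1, an antiviral oligoadenylate synthetase-like protein. The lists of genes used here were drawn up with earlier results of these data known and are no independent evidence of a direction. Fewer genes rose and more fell without composition scaling: with library size alone, 311 genes were higher and 446 lower, and the median of all genes shifted by -0.26. With 24 libraries thinned to equal totals, 215 were higher and 248 lower, with a shift of -0.19. With library size alone, 14 of the 15 interferon genes were called higher. The count of lower genes was 121 without PAM + CpGB replicate 3, 147 without triplet replicate 1 and 139 without triplet replicate 3.

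Cxcl10 was at 13438, 14667 and 14170 CPM in the triplet and at 1078, 1007 and 848 CPM with PAM + CpGB. With PAM + cGAMP it was at 12671, 14170 and 14620 CPM, and with cGAMP + CpGB at 12369, 11448 and 12778 CPM. The triplet lay far above PAM + CpGB in every library and overlapped PAM + cGAMP. All 3 triplet libraries lay above all 3 of PAM + CpGB in 18.5% of tested genes. The rise on adding cGAMP was 3.85 (SE 0.19, adjusted p = 1.5e-46). Ifit1 was at 6972, 6780 and 7174 CPM in the triplet and at 897, 1229 and 1056 CPM with PAM + CpGB, a rise of 2.71 (SE 0.15, adjusted p = 6.59e-42). With PAM + cGAMP its level was 6653, 7957 and 7273 CPM, which overlaps the triplet, and with cGAMP + CpGB it was 5798, 6224 and 5932 CPM. Oasl1 rose from 229, 281 and 184 CPM to 3488, 4073 and 3899 CPM, again with no overlap (4.03, SE 0.27, adjusted p = 8.64e-39). Gbp and IRG genes, interferon-inducible GTPases that act on intracellular pathogens, were called higher in 13 of 14 cases with a median of 1.77, where 9.43% of all genes were; the exception was Gbp8 at 0.05. Reads of near-identical copies in such families (Gbp, Ifit, Oas, H2 and the Ccl2, Ccl7 and Ccl12 group) may have been shared between genes in the counting.

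Ifnb1, which encodes interferon beta, was nearly absent with PAM + CpGB. It was at 0, 14.8 and 8 CPM there, from 3 counts in all, and at 366, 281 and 394 CPM in the triplet, from 219 counts. The ratio was 42.1 (95% counting interval 14.2 to 206) with an adjusted p of 1.48e-18. The pairs with cGAMP held 318, 219 and 260 CPM (PAM + cGAMP) and 458, 333 and 436 CPM (cGAMP + CpGB), so the triplet overlapped both. In the list of interferon regulatory and Stat factors, 4 of 17 were called higher, namely Irf1 (2.27), Irf7 (1.67), Irf8 (1.50) and Batf2 (1.38), where 9.43% of all genes were, with a median of 0.38.

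The promoters of 3 of these genes are printed so that a reader can see the sequence upstream of an interferon-stimulated gene, a gene with both kinds of motif, and a chemokine of the PAM comparison below. They were chosen after the values were seen. Each is the 250 bases before the RefSeq gene start in GRCm38.p6, 5' to 3' on the gene's strand, with matches in capitals to an interferon-stimulated response element, written GAAANNGAAA, or to the NF-kB motif. Both strands were searched. Cxcl10 lies on the minus strand (chr5:92348890-92349139), Ifit1 on the plus strand (chr19:34640639-34640888) and Cxcl2 on the plus strand (chr5:90903649-90903898).
Cxcl10: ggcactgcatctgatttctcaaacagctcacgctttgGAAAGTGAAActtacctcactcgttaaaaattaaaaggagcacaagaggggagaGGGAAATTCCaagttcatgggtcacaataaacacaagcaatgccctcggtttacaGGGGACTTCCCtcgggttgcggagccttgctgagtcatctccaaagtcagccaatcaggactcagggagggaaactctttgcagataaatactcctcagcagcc
Ifit1: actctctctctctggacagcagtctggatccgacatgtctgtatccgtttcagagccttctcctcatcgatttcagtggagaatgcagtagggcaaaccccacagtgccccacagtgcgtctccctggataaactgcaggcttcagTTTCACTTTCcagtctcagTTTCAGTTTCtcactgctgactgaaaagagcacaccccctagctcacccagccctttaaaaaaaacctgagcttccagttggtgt
Cxcl2: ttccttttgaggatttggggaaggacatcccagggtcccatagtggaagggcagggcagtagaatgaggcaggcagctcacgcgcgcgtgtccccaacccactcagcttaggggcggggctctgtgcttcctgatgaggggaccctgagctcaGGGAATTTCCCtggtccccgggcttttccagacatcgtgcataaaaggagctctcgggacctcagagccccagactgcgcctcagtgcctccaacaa
The Cxcl10 window holds 1 response element, 213 bases before the start, and 3 NF-kB matches at 159, 104 and 103, of which the last pair overlap. The Ifit1 window holds 2 response elements, at 104 and 85 bases, and no NF-kB match. The Cxcl2 window holds 2 overlapping NF-kB matches at 97 and 96 bases and no response element. Of all 27025 promoter windows of this length, 3.04% held the response element and 7.01% the NF-kB motif. A match describes letters in the window and is not evidence of binding.

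Part of the cytokine list rose with cGAMP. Of its 17 tested genes, which include a receptor chain, 9 were called higher and none lower, where 9.43% and 4.77% of all genes were, with a median of 1.56. Il6, a pleiotropic inflammatory cytokine, was at 6271, 5515 and 6070 CPM in the triplet and at 1336, 1459 and 1448 CPM with PAM + CpGB (2.07, SE 0.14, adjusted p = 5.04e-32). Tnf, tumour necrosis factor, was at 23600, 27438 and 25706 CPM in the triplet and at 7538, 8937 and 8232 CPM with PAM + CpGB (1.63, SE 0.15, adjusted p = 1.67e-19). Both genes were higher in every triplet library than in any of PAM + CpGB, as were 18.5% of tested genes. Il27, a subunit of the cytokine IL-27, had 38 counts in the triplet and 1 with PAM + CpGB, a ratio of 21.9 (95% counting interval 3.70 to 888, adjusted p = 0.000129). The other called members, beside Ifnb1, were Il15 (2.24), the IL-17 receptor chain Il17ra (1.90), the IL-1 receptor antagonist Il1rn (1.56), Il12b (1.24) and Csf1 (1.21). The Il12b call had an adjusted p of 0.0347 and was lost in 7 of 13 alternative analyses, among them those without PAM + CpGB replicate 1 or 3 and without triplet replicate 1. Il12a, the other subunit of IL-12, rose by less than 2-fold (0.91, SE 0.23, adjusted p = 0.00100). Il10 had 12 counts against 1, a ratio of 6.92 (1.02 to 296), and did not pass the test (adjusted p = 0.103).

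Il1b, the IL-1 beta precursor, did not pass the test on adding cGAMP. It was at 6864, 7469 and 7426 CPM in the triplet and at 7719, 8293 and 8584 CPM with PAM + CpGB. Every triplet library was below the pair's, but the log2 difference was -0.18 (adjusted p = 0.298). The fall passed in 2 of 13 alternatives, with library size alone and in the fit of the 12 libraries, with an adjusted p down to 0.00143. Il1a, in contrast, rose by 0.92 (SE 0.13, adjusted p = 1.81e-09), from 2500, 2562 and 2712 CPM to 4555, 5107 and 5049 CPM. The difference between the effects on these 2 genes was not tested.

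Of 17 tested chemokines, 8 were called higher and 1 lower, where 9.43% and 4.77% of all genes were, with a median of 1.54. The 1 of 17 lower is a share near that of all genes. The higher ones were the monocyte attractants Ccl2 (4.32) and Ccl7 (2.94), the T cell attractants Cxcl9 (2.87), Cxcl10 and Cxcl11, and the leukocyte attractants Ccl3 (1.54), Ccl4 (2.67) and Ccl5 (1.77). Ccl2 rose from 28.6, 22.2 and 56 CPM to 928, 621 and 641 CPM (SE 0.53, adjusted p = 1.21e-23). Cxcl11 had 39 counts against 2, a ratio of 11.2 (2.91 to 96.1, adjusted p = 0.00256). Cxcl3, a neutrophil attractant, fell from 9580, 8633 and 9136 CPM with PAM + CpGB to 2911, 3664 and 2808 CPM in the triplet (-1.54, SE 0.18, adjusted p = 6.97e-13). The related neutrophil chemokines Cxcl1 and Cxcl2 were at -0.48 (adjusted p = 0.0398) and -0.17. The Cxcl1 result was lost in 7 of 13 alternatives, among them those without any 1 library of PAM + CpGB and without triplet replicate 1 or 3. The acute-phase gene Saa3 also fell, from 11651, 11758 and 11312 CPM to 4225, 4322 and 4453 CPM (-1.42, adjusted p = 1.13e-13). Both genes were lower in every triplet library than in any library of PAM + CpGB, as were 14.4% of tested genes.

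**Figure D2:**
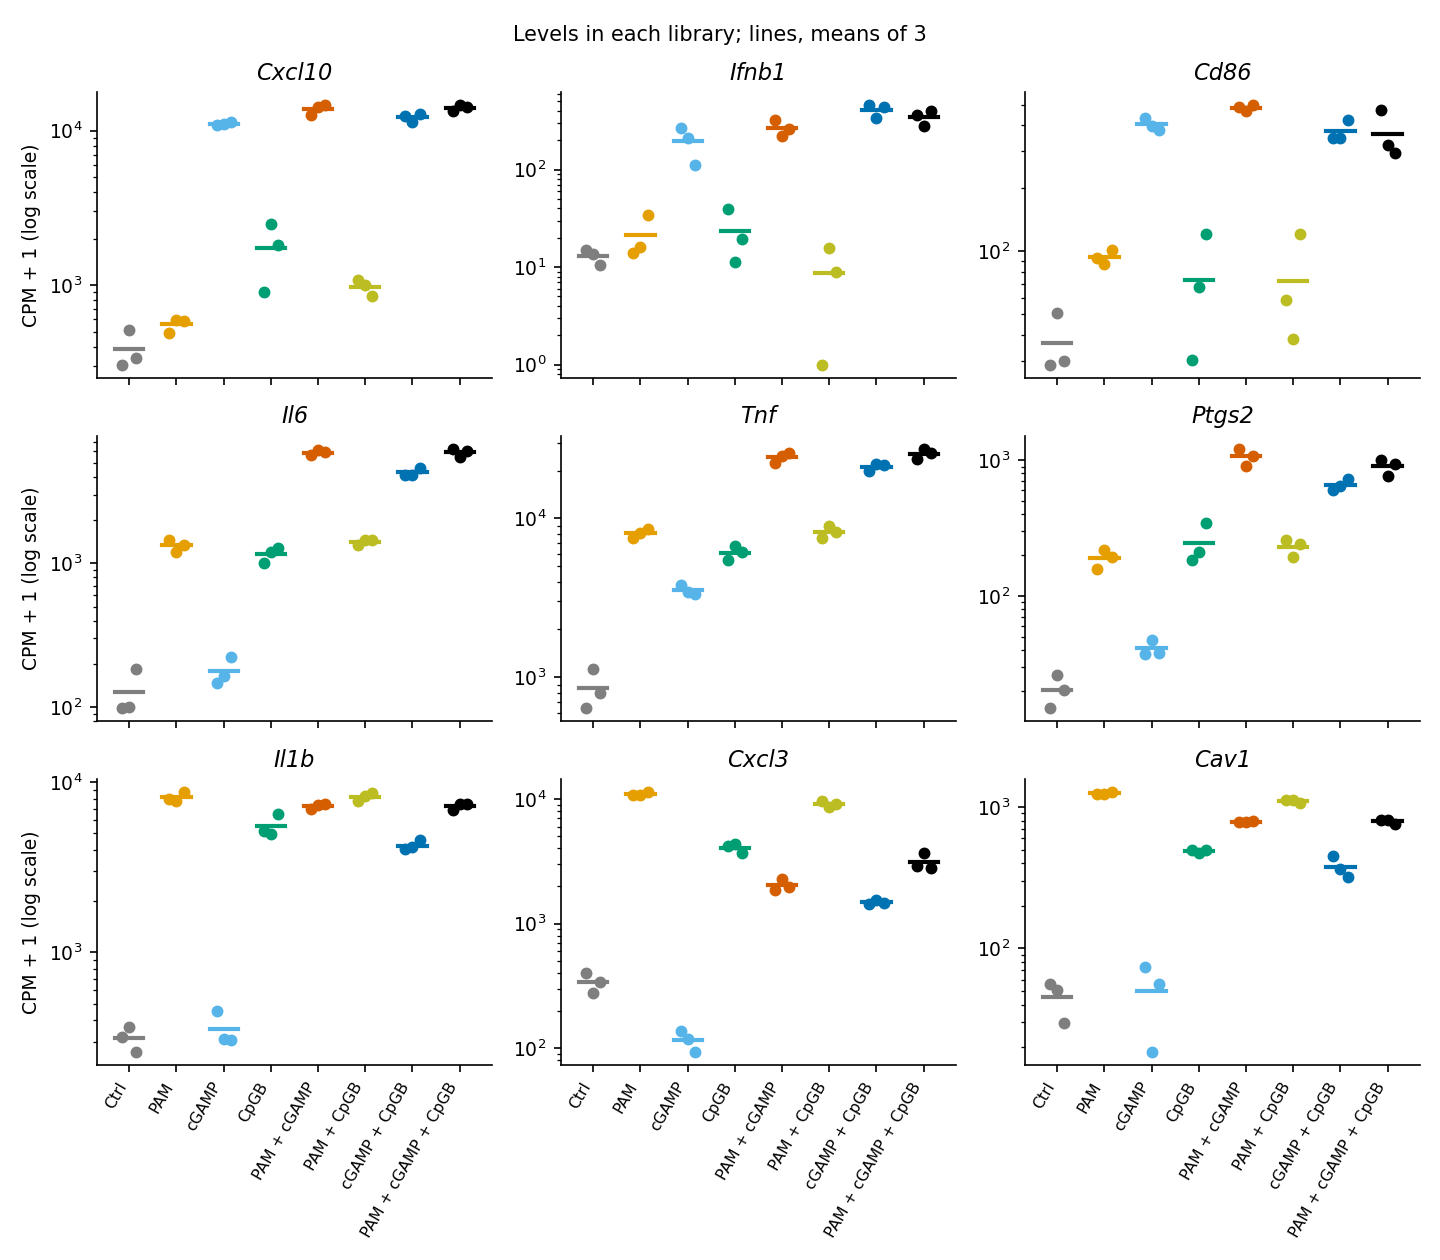
Level of 9 genes in each library of Ctrl, the single ligands, the pairs and the triplet, as CPM + 1 on a log axis, with points for libraries and lines for group means. Cxcl10 and Ifnb1 are high wherever cGAMP was given, while Cxcl3 is high with PAM alone (10675 to 11279 CPM) and lower in all groups with cGAMP.

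Part of the costimulation and MHC class I genes rose, and those of class II did not pass the test upward. In the costimulation and maturation list, 6 of 12 were called higher (4 with library size alone), where 9.43% of all genes were, with a median of 1.01: Tnfsf15 (3.28), Cd86 (2.33), Cd274 (1.39), Cd40 (1.32), Marcksl1 (1.26) and Cd83 (1.12). The adhesion molecule gene Icam1 passed downward only without the fold threshold (-0.43). Cd86, a ligand of CD28, was at 474, 322 and 293 CPM in the triplet and at 57.3, 37 and 120 CPM with PAM + CpGB (SE 0.36, adjusted p = 1.3e-10). Cd40, the receptor for T cell help, rose from 601, 800 and 608 CPM to 1886, 1556 and 1613 CPM (SE 0.16, adjusted p = 4.32e-13). Of 15 MHC class I genes, 4 were called higher, where 9.43% of all genes were: H2-T23 (1.44), the peptide transporter Tap1 (1.26), the transactivator Nlrc5 (1.16) and the immunoproteasome subunit Psmb9 (1.03); with library size alone it was 1. The Psmb9 call was lost in 5 of 13 alternatives, among them those without PAM + CpGB replicate 1 or 2 and without triplet replicate 3, with values down to 0.26. Without the fold threshold 13 of the 15 passed upward, where 12.9% of all genes did, and 6 of 15 did so with library size alone. Of 10 class II genes, none passed upward and the protease Ctsd passed downward (-0.30), where 6.91% of all genes did; the list's median was 0.07.

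Of 16 feedback inhibitors, 5 were called higher, where 9.43% of all genes were: the MAP kinase phosphatase Dusp1 (1.59), the ISG15 protease Usp18 (1.59), the mRNA-destabilising Zfp36 (1.38), Trim30a (1.22) and the repressor Atf3 (1.19). Irak3, a pseudokinase that restrains MyD88 signalling, was the 1 of 16 called lower (-1.36), a share near the 4.77% over all genes, from 239, 178 and 152 CPM to 77.3, 99.8 and 41.2 CPM. The Dusp1 call was lost with 12 libraries thinned to equal totals. With library size alone 3 feedback genes were called higher. None of the 14 NF-kB subunits and inhibitors was called at 2-fold; Tnfaip3 (0.87) and Nfkb1 (0.52) passed upward and Tnip1 (-0.83) downward without it. Their median was 0.04, and -0.22 with library size alone. Among the receptors and adaptors that sense these ligands, Irf7 and the kinase gene Tbk1 (1.07) were called higher of 16, and 1 of them with library size alone. The 2 of 16 are a share near the 9.43% called higher over all genes.

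Ptgs2, Nos2, Irg1 and Ass1, enzymes of inflammatory mediators and arginine metabolism, rose, and some genes of cholesterol synthesis fell. Ptgs2, the inducible prostaglandin synthase, rose from 258, 193 and 240 CPM to 1005, 762 and 939 CPM (1.98, SE 0.24, adjusted p = 4.82e-14). It was the 1 called member of 8 in the prostaglandin and leukotriene list, a share near the 9.43% called higher over all genes, and the list's median was 0.01. Nos2, inducible nitric oxide synthase, had 42 counts in the triplet against 1, a ratio of 24.2 (4.11 to 979, adjusted p = 7.84e-05); its call was lost with 12 thinned libraries (adjusted p = 0.101). Irg1, which makes itaconate, rose by 1.17 and Ass1, which recycles citrulline to arginine, by 1.19. Of 13 cholesterol synthesis genes 5 were called lower, where 4.77% of all genes were, with a median of -0.90, including Mvd (-2.98) and Fdft1 (-2.49), which act before and at the step to squalene, Sqle (-1.66) and Srebf1 (-1.56). Fdft1 was low in all groups, at 85.9, 96.3 and 120 CPM with PAM + CpGB and at 15.5, 22.7 and 13.7 CPM in the triplet. The count of lower cholesterol genes depended on the analysis: it was 8 with library size alone, 3 with thinned libraries, 3 of 19 with no filter on low counts and 1 of 7 in a fit of the 12 libraries, and the Mvd call was lost without PAM + CpGB replicate 3. The Sqle call was lost without that library and without triplet replicate 1 or 3, with an adjusted p up to 0.235. Of 16 oxidative stress genes 3 were called lower, where 4.77% of all genes were: Hmox1 (-1.49), Srxn1 (-1.02) and Txnrd1 (-1.01), with 1 lower without the filter and 5 with library size alone.

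The widest changes with cGAMP included genes outside these lists. Rgcc, a regulator of cell cycle progression, had 109 counts in the triplet and 1 with PAM + CpGB, a ratio of 62.8 (11.0 to 2505, adjusted p = 7.15e-11). Some genes had no count at all with PAM + CpGB, and their change is given as a bound against 3 counts over the group: 2310014L17Rik was at least 8.07-fold higher in the triplet, the GTPase gene Rhoh at least 7.69-fold, Clic5 at least 7.49-fold, and Klf8 and Mycl1 each at least 7.30-fold. Among called genes at 50 CPM or more whose libraries did not overlap, the largest falls were those of Dok2, an adaptor that dampens receptor signalling (-3.27, SE 0.61, adjusted p = 2.41e-08), 2510009E07Rik (-3.12), Mvd, the stress gene Gadd45a (-2.95), Sec14l1 (-2.90) and the fatty acid desaturase gene Scd2 (-2.84). Dok2 was at 115, 170 and 184 CPM with PAM + CpGB and at 5.15, 13.6 and 27.5 CPM in the triplet. The Scd2 call was lost with thinned libraries and without PAM + CpGB replicate 1. Csf1r, the receptor of macrophage colony-stimulating factor and a macrophage marker, fell by 1.09 (adjusted p = 2.29e-10), and the macrophage and monocyte list as a whole summed to lower values in each triplet library than in any PAM + CpGB library. The summed plasmacytoid dendritic cell list was at most 66.8 CPM in a library of PAM + CpGB and 144 to 170 CPM in the triplet, which was nearly all Tcf4, at a mean of 54.8 and 156 CPM. Siglech and Klk1, also on that list, were at 0 in all 12 libraries, and Ccr9, Spib, Pacsin1 and Cox6a2 had group means of at most 5.22 CPM. The part of cell composition in these results was not tested.

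**Figure D3:**
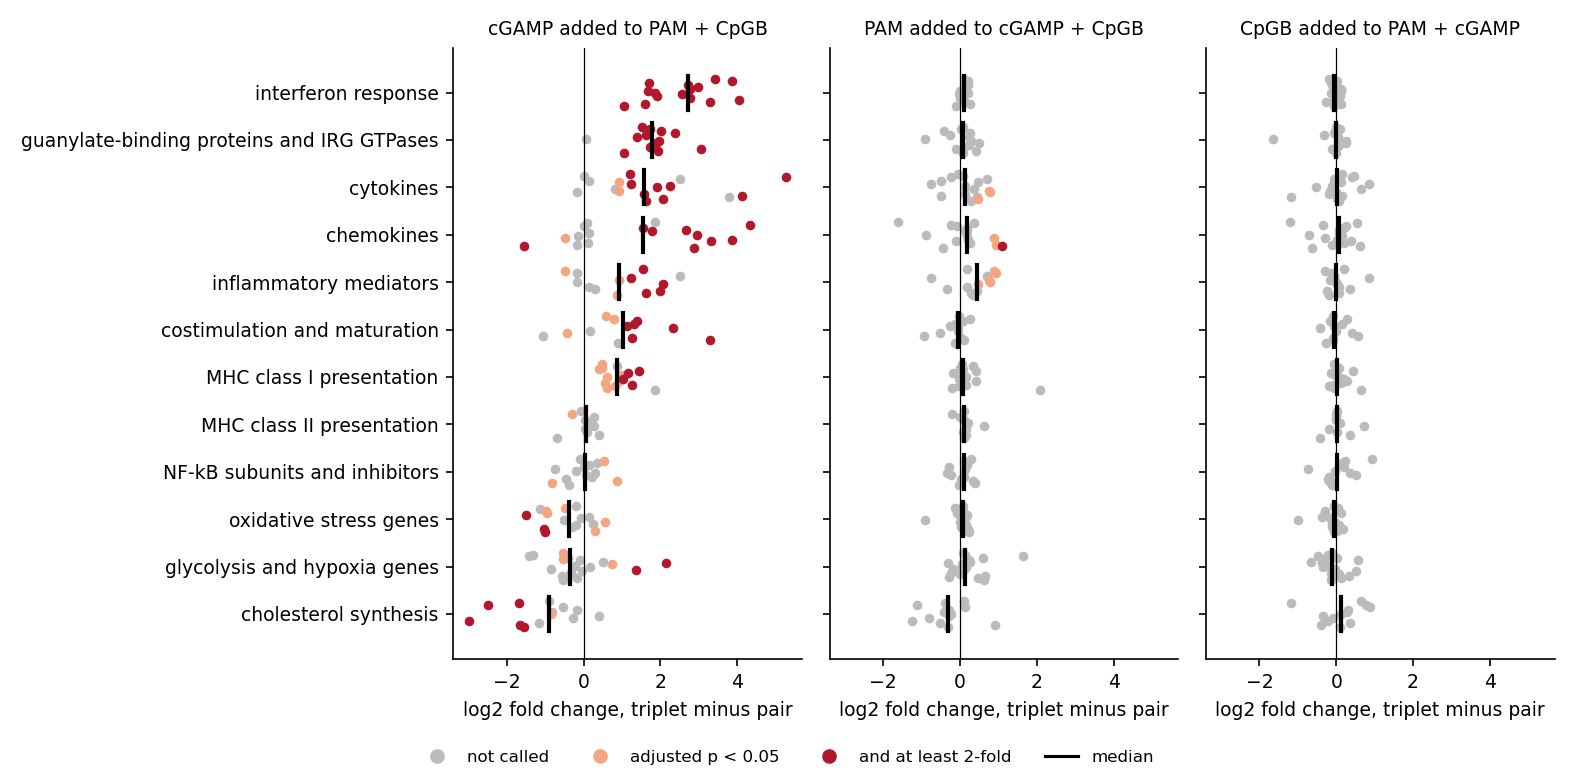
Log2 fold change of the triplet against each pair for the members of 12 gene lists, with 1 point per gene, coloured by whether it passed the test, and a black mark at the list's median. On adding cGAMP the interferon response list has a median of 2.71 and cholesterol synthesis one of -0.90, while on adding CpGB no member passed.

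The addition of PAM to cGAMP + CpGB raised a small set of genes, among them those of IL-1 and of neutrophil chemokines. Without a fold threshold 19 genes passed upward and 5 downward (0.403% and 0.106% of those tested), of which 6 and 3 changed at least 2-fold. Il1b, Il1a, Cxcl1, Cxcl2 and Il6 made up 5 of the 13 inflammatory mediators, and the list's median was 0.44 against 0.02 for all genes. No member of the interferon response list passed (median 0.10). All 24 genes are named below, a choice made after their values were seen.

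Il1b was at 6864, 7469 and 7426 CPM in the triplet and at 4033, 4139 and 4552 CPM with cGAMP + CpGB (0.77, SE 0.11, adjusted p = 6.06e-07). With PAM + cGAMP it was at 6962, 7307 and 7402 CPM, within the triplet's range. Cxcl2 was at 8023, 7365 and 6785 CPM in the triplet, 3744, 3727 and 4056 CPM with cGAMP + CpGB (0.94, adjusted p = 2.54e-05) and 7518, 8531 and 7949 CPM with PAM + cGAMP. Both genes were higher in every triplet library than in any of cGAMP + CpGB, as were 7.1% of tested genes. Il1a rose by 0.74 (SE 0.13, adjusted p = 3.08e-05) from 2895, 2694 and 3190 CPM. Cxcl3 rose from 1426, 1543 and 1452 CPM to 2911, 3664 and 2808 CPM (1.08, SE 0.20, adjusted p = 9.97e-05). Cxcl1 rose from 781, 464 and 508 CPM to 1051, 1229 and 875 CPM (0.87, SE 0.20, adjusted p = 0.00508).

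U90926 was at 175, 209 and 224 CPM in the triplet and at 34, 39.2 and 23.9 CPM with cGAMP + CpGB, the largest of the 19 rises (2.64, SE 0.49, adjusted p = 7.16e-07). Cav1, the coat protein of caveolae, rose from 450, 366 and 317 CPM to 804, 812 and 756 CPM (1.09, SE 0.17, adjusted p = 7.16e-07). Lcn2, which binds bacterial siderophores, rose from 272, 163 and 173 CPM to 381, 431 and 472 CPM (1.12, SE 0.22, adjusted p = 0.000177). These 3 genes were higher in every triplet library than in any of cGAMP + CpGB, as were 7.1% of tested genes. At least 2-fold rises were also seen for Inhba, a subunit of activin (1.13, adjusted p = 0.0057), and Ch25h, which hydroxylates cholesterol (1.01, adjusted p = 0.0126). Smaller rises passed for Plek (0.51), Acpp (0.92), the lipopeptide and lipopolysaccharide coreceptor Cd14 (0.69), the collagenase Mmp13 (0.94), Cebpb (0.64), Anxa2 (0.60), the lectin receptor Clec4e (0.41), Etnk1 (0.80) and Il6 (0.47). Il6, at 4134, 4086 and 4636 CPM with cGAMP + CpGB, had an adjusted p of 0.0477 and passed in only 2 of 13 alternatives, and in none that left out a library. Htra4, a serine protease (-1.08), the chloride transporter Clcn4-2 (-1.54), the Fc receptor Fcgr4 (-0.81) and complement C3 (-0.58) passed downward, as did the cyclophilin gene Ppid, with 2 counts in the triplet against 16 (ratio 0.0865, 95% counting interval 0.00965 to 0.368). Of the 24 genes, the 7 that passed in all 13 alternatives were Il1b, U90926, Cav1, Cxcl2, Il1a, Cxcl3 and Lcn2, and the other 17 were lost in 1 or more. With DESeq2, 5 genes were called higher and 0 lower, and no gene was called lower without cGAMP + CpGB replicate 2 or without triplet replicate 3, and 1 without triplet replicate 2. With 24 libraries thinned to equal totals, 24 genes were called higher and 35 lower.

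The addition of CpGB to PAM + cGAMP left no gene past the threshold in the edgeR test. At an unadjusted p under 0.05 there were 270 genes, the smallest adjusted p was 0.0545, and DESeq2 also called 0 genes, with 216 at an unadjusted p under 0.05. The main products of the triplet were close to those of the pair: Il6 differed by 0.01 (95% interval -0.23 to 0.26), Tnf by 0.08 (-0.21 to 0.37), Il1b by 0.01 (-0.22 to 0.23), Cxcl10 by 0.03 (-0.29 to 0.34) and Ifit1 by -0.07 (-0.32 to 0.19). Of 2834 genes with at least 50 CPM in either group, 1904 (67.2%) had an interval that lay within a 2-fold change in both directions. For the other genes the interval did not leave out a 2-fold change at this depth. Tnf was at 22166, 24499 and 25926 CPM with PAM + cGAMP, which overlaps the triplet, and Il6 at 5639, 6145 and 5906 CPM, likewise.

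The 3 genes nearest the threshold were lower in the triplet. Sgk1, a serum- and glucocorticoid-induced kinase, was at 752, 662 and 935 CPM in the triplet and at 1359, 1135 and 1237 CPM with PAM + cGAMP (-0.66). Fabp4, a fatty acid-binding protein, was at 113, 81.6 and 165 CPM against 212, 273 and 273 CPM (-1.08). Neat1, a nuclear noncoding RNA, was at 577, 413 and 513 CPM against 812, 745 and 745 CPM (-0.62). Each had an adjusted p of 0.0545, and in each the 3 triplet libraries lay below the pair's, as did 5.97% of tested genes. Cxcl3 was at 2911, 3664 and 2808 CPM against 1862, 2290 and 1975 CPM, higher in every triplet library, as were 5.81% of tested genes (0.61, adjusted p = 0.458). In 4 of the 13 alternatives at least 1 gene passed the adjusted p. Sgk1 and Fabp4 passed in all 4, and Cxcl3 passed in 2, with an adjusted p of 3.35e-06 in a fit of only the 12 libraries. That fit passed 13 genes, 3 higher and 10 lower. In analyses of 24 libraries, which include the single ligands and Ctrl and are not among the 13, the fit passed 3 genes higher and 9 lower. With those libraries thinned to equal totals, 8 passed higher and 33 lower, of which 7 and 29 changed at least 2-fold. Panel genes with an interval that left out 0 but no call included Il12b (0.85, 0.02 to 1.69, adjusted p = 0.805), Cxcl9 (-0.64, -1.13 to -0.16, adjusted p = 0.593) and Cd86 (-0.42, -0.83 to -0.01, adjusted p = 0.831). For Ifnb1 the difference was 0.40 (-0.08 to 0.88).

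Calls for CpGB and for PAM were fewest when the ligand was added to both others. CpGB made 508 genes higher and 296 lower against Ctrl (10.8% and 6.27% of those tested), 36 and 1 when added to PAM (0.763% and 0.0212%), 207 and 130 when added to cGAMP (4.39% and 2.75%), and 0 and 0 when added to both. PAM made 378 and 278 against Ctrl (8.01% and 5.89%), 259 and 160 on cGAMP (5.49% and 3.39%), 11 and 32 on CpGB (0.233% and 0.678%), and 6 and 3 on both. For cGAMP the counts were 551 and 279 against Ctrl (11.7% and 5.91%), 627 and 329 on PAM (13.3% and 6.97%), 250 and 117 on CpGB (5.3% and 2.48%), and 445 and 225 on both. The 37 calls of CpGB on PAM became 23 without PAM + CpGB replicate 2, and the 43 of PAM on CpGB became 25 without CpGB replicate 3. Numbers of calls also depend on depth, and the Ctrl libraries were among the shallower ones (61823 to 89530 UMIs).

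**Figure D4:**
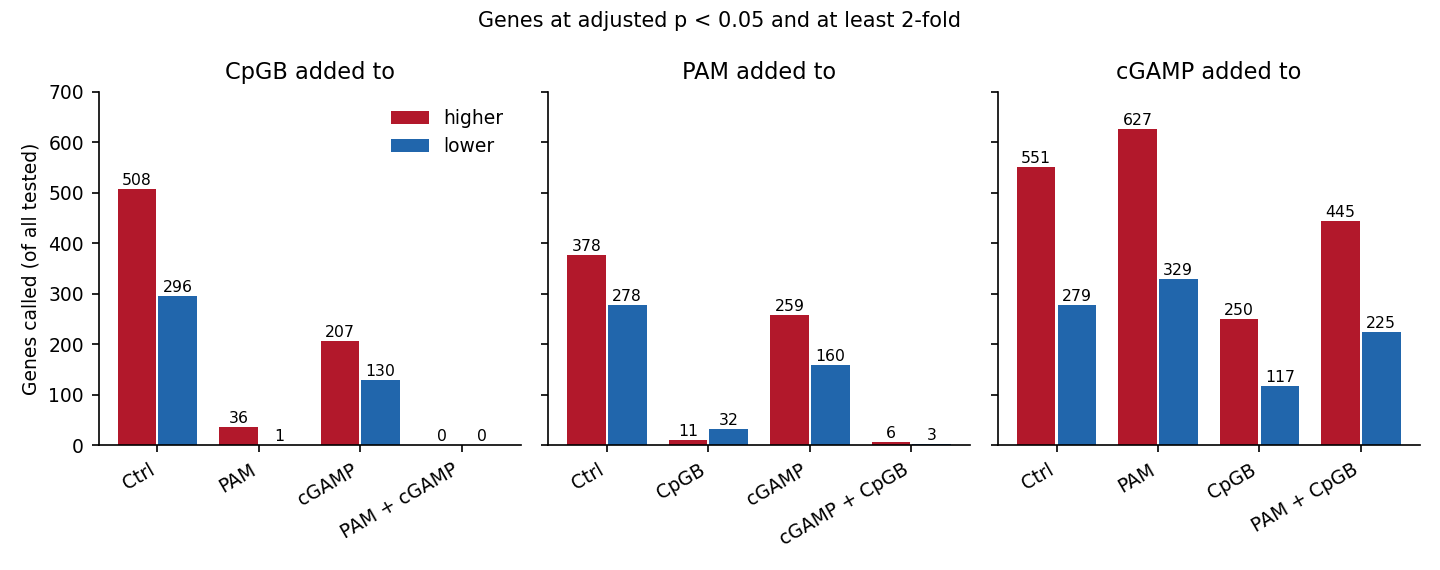
Number of genes called higher (up) and lower (down) at 2-fold when each ligand is added to Ctrl, to either of the other ligands alone or to both together. Bars for CpGB and PAM shrink to 0 and 9 genes in all on the other pair, and those for cGAMP do not.

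The test of that change, the effect of a ligand on the pair minus its effect on Ctrl, passed for 602 genes with CpGB, 421 with PAM and 175 with cGAMP. For CpGB 160 of them were higher on the pair than on Ctrl and 442 lower (3.39% and 9.36% of those tested). For PAM there were 147 and 274 (3.11% and 5.81%), and for cGAMP 28 and 147 (0.593% and 3.11%). Lower values include genes that a ligand raised from Ctrl and moved less on the pair. Clec4e, for example, was raised by 2.67 by CpGB alone and by 3.34 by PAM alone, while the triplet differed from its pairs by -0.29 and 0.41. The 0.41 with PAM passed the edgeR test (adjusted p = 0.0433). Lgals3, a galectin, went the other way, falling by 1.41 with CpGB alone and by 1.70 with PAM alone against -0.02 and -0.09 on the pairs. The three-way interaction, whether the triplet departs from what its pairs and single ligands add up to, passed for 58 genes upward and 10 downward (1.23% and 0.212%), of which 57 and 9 were at least 2-fold (1.21% and 0.191%). With 24 libraries thinned to equal totals, 38 were higher and 32 lower at 2-fold for that interaction. With 117 higher and 399 lower at 2-fold for CpGB (2.48% and 8.45%) and 118 and 238 for PAM (2.5% and 5.04%), the balance depended on scaling. With library size alone the share of at least 2-fold differences that were higher was 39.4% for CpGB in place of 22.7%, and the median of all genes shifted by 0.23. For PAM, RLE, library size and DESeq2 scaling gave 153, 157 and 125 higher and 207, 201 and 169 lower.

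**Figure D5:**
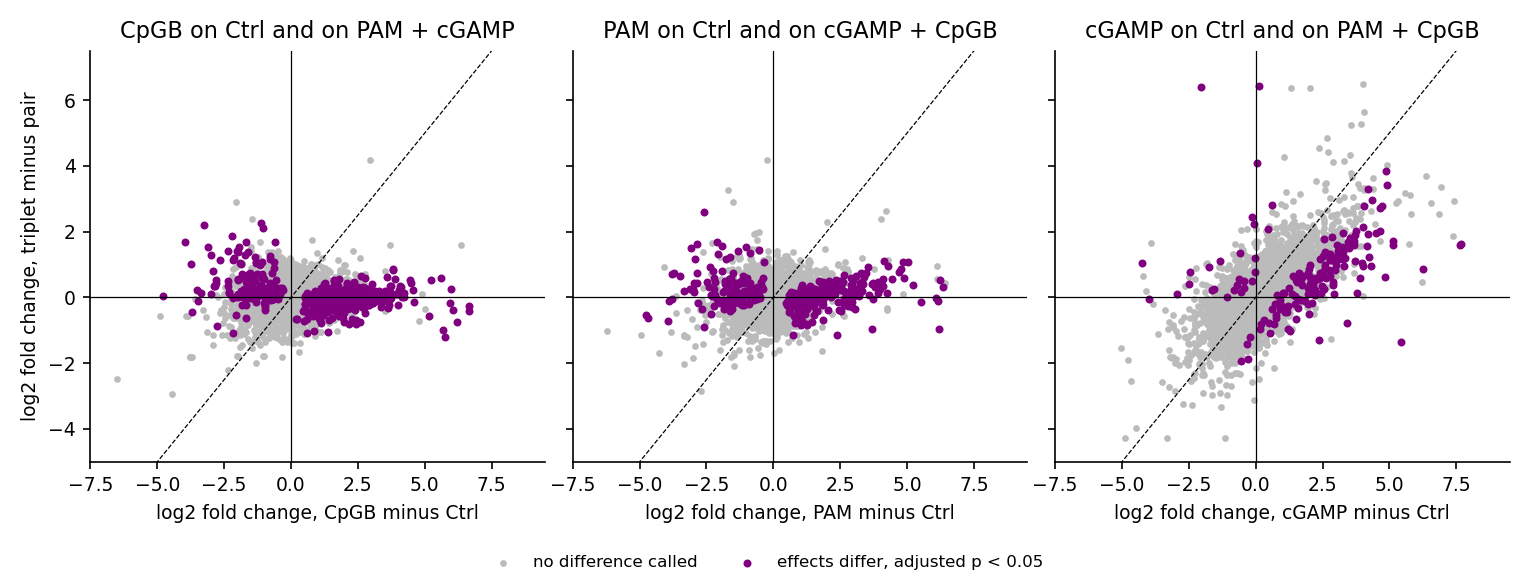
Log2 fold change of each ligand against Ctrl (horizontal) and of the triplet against the pair without that ligand (vertical), with 1 point per gene at 50 CPM or more, genes whose effects differ in purple and a dashed line where both effects are equal. For CpGB and PAM the points spread along the horizontal axis, as with Il1b, at 4.16 and 0.01 for CpGB, and for cGAMP along both.

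No gene was called higher or lower in the triplet than in all 3 pairs at once. The smallest adjusted p of that test was 1, with 7 genes above and 6 below at an unadjusted p under 0.05. Set against PAM + CpGB and cGAMP alone, 1 of the divisions of the triplet into a pair and its added ligand, 47 genes were higher than both (0.996% of those tested) and 11 lower (0.233%). Among them was Edn1, which encodes the vasoconstrictor peptide endothelin, at 716, 685 and 641 CPM in the triplet, 76.3, 118 and 64 CPM with PAM + CpGB and 45.8, 46.7 and 36.8 CPM with cGAMP (2.95 and 3.96 above them on the log2 scale, adjusted p = 7.31e-15). It was at 485, 540 and 649 CPM with PAM + cGAMP, partly overlapping the triplet. Il6 (2.07), Ptgs2 (1.98), Inhba (1.92), Tnf (1.63), Ccl3 (1.54), Ccl4 (1.38), Cd40 (1.32) and Ccl5 (1.26) were also above both, each figure being the smaller of the 2 differences. Dok2, 2.14 below cGAMP alone and 3.27 below the pair, was among the 11 lower genes. The 11 became 3 without triplet replicate 1, 10 without triplet replicate 2, and 6 or 7 without any other single library of the 3 groups. With library size alone, more genes were lower than both than were higher, as given below. The other divisions of the triplet were not counted. The genes of this comparison were named after their values were seen. Since no gene passed against all 3 pairs, none of the 47 was shown to exceed both pairs that contain cGAMP.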

How the data were processed

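Bone marrow-derived dendritic cells were profiled by bulk RNA sequencing after 6 hours with ligand. Per the labels' protocols, RNA was reverse transcribed with template switching, the cDNA of many samples was pooled, and libraries were made by tagmentation and sequenced on a NextSeq instrument. The authors deposited 1 table of UMI counts for 23481 genes and 192 libraries, with whole-number counts that are not normalized. BWA 0.7.15 and the genome build mm10 come from the submitters' processing notes. How UMIs were collapsed, how reads with several matches were treated and which annotation was used are not given in the sources used here. Libraries were unequal in depth.

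Groups came from the library titles. Counts were analysed with edgeR 4.0.16 in R 4.3.3 (limma 3.58.1). Genes were filtered with filterByExpr by group, which kept 4720 genes holding 95.7% of UMIs (8619 genes had no count), and libraries were scaled by TMM. The quasi-likelihood model had 1 coefficient for each of the 64 groups, fitted to all 192 libraries (128 residual degrees of freedom, common biological coefficient of variation 10.3%). Each contrast was tested with the quasi-likelihood F-test, two-sided, and adjusted by Benjamini-Hochberg over the 4720 genes. CPM are counts per 1000000 UMIs of the tested genes with TMM-scaled library sizes, and 50 CPM was the minimum for genes named by size. Intervals are 95% intervals from the model, and counting intervals are exact binomial ones that cover counting error only. The test of all 3 pairs took the largest of the 3 p-values. The difference of a ligand's effects is (triplet minus pair) minus (ligand alone minus Ctrl), and the three-way interaction also takes in the other pairs and ligands. Principal components used log2 CPM with a prior count of 2.

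The libraries, gene lists and tests were chosen with earlier results of these data known. Named genes are a panel of cytokines, chemokines and activation markers (Il23a and Acod1 of it were not tested; the table lists Irg1), the called genes with the largest changes among those whose libraries do not overlap, up to 4 called members of each list, and the genes with the smallest p in each difference of effects; others are marked in the text. The scripts were tested on simulated data. Alternatives were RLE size factors, library size alone, DESeq2 1.42.0, no filter on low counts, a fit of only the groups compared, a replicate block, libraries thinned to equal totals, leaving out each library and no fold threshold. The comparison with PAM + CpGB and cGAMP alone, and the listing of genes that pass for CpGB under the alternatives, were added after the data were seen. Replicates of a group differed beyond counting noise, so each counted as 1 library.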

Additional observations from a re-analysis of the deposited data

Results flagged for a closer look

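The effect of each ligand differed between the pair and Ctrl in an interaction test for many genes, at an adjusted p under 0.05: 602 for CpGB, 175 for cGAMP and 421 for PAM. For CpGB, the effect on PAM + cGAMP minus that on Ctrl was 2.03 on the log2 scale for Gpx1, a glutathione peroxidase, 1.39 for Lgals3, -4.16 for Il1b and -2.96 for Clec4e. For PAM, on cGAMP + CpGB minus on Ctrl, it was 1.61 for Lgals3, 1.60 for Gpx1, -3.94 for Il1b and -2.94 for Clec4e. Lgals3 shows the positive direction: it was at 3975, 4191 and 3869 CPM in Ctrl, 1368, 1567 and 1568 CPM with CpGB and 1024, 1423 and 1245 CPM with PAM, while the triplet held 1649, 1995 and 1874 CPM and PAM + cGAMP 1774, 1914 and 1893 CPM. The libraries of CpGB and of PAM were all below Ctrl, and the triplet overlapped the pair.

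For cGAMP, on PAM + CpGB minus on Ctrl, the difference was 1.06 for the macrophage elastase Mmp12, 3.04 for Arhgap25, -1.96 for Irg1 and -2.13 for Pnp, a purine nucleoside phosphorylase. Arhgap25 was at 540, 461 and 557 CPM in Ctrl and 73.4, 81.8 and 49.1 CPM with cGAMP alone, but at 66.8, 37 and 32 CPM with PAM + CpGB and 36.1, 40.8 and 64.1 CPM in the triplet, so the pair was already low. Its difference for cGAMP was lost with 24 libraries thinned to equal totals (adjusted p = 0.148). Irg1 was at 402, 474 and 365 CPM in Ctrl and 4246, 3377 and 3222 CPM with cGAMP, against 2634, 3191 and 2816 CPM with PAM + CpGB and 6894, 6667 and 5887 CPM in the triplet.

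The three-way interaction, which asks whether the triplet departs from what its pairs and single ligands add up to on the log2 scale, passed for 68 genes, 58 positive and 10 negative. It was 2.24 for Gbp2, 1.82 for Irg1, -1.17 for the noncoding RNA Neat1 and -3.76 for Arhgap25. Gbp2 was at 3220, 3043 and 3024 CPM in the triplet and 3115, 3158 and 3103 CPM with PAM + cGAMP, which overlap. With 24 libraries thinned to equal totals, 38 genes were higher and 32 lower at 2-fold for this interaction, in place of 57 and 9. Of the 8 genes named for this interaction by their p, 4 passed in every alternative. Neat1 was lost in 4 of 31, with an adjusted p up to 0.197, among them those without PAM + CpGB replicate 1 and without triplet replicate 2. Arhgap25 was lost in 3 of 31, with an adjusted p up to 0.143, among them those without PAM + cGAMP replicate 2 and without PAM + CpGB replicate 1.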

How the results depend on the processing

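Of 130 single-gene results past the threshold, 97 passed it in every alternative run, and none of the 2450 alternative values for 168 gene results changed direction in a call. The counts moved more. On adding CpGB to PAM + cGAMP, lower genes went from 0 to 2 without a filter on low counts, 2 in a fit of the 12 libraries and 1 with a replicate block, and 24 libraries thinned to equal totals gave 7 higher and 29 lower; leaving out single libraries gave 0 to 1 lower (1 without triplet replicate 3) and 0 higher. On adding cGAMP to PAM + CpGB, lower genes went from 225 to 446 with library size alone and 144 without the filter, 24 thinned libraries gave 215 higher and 248 lower (46.4% higher in place of 66.4%), and leaving out single libraries gave 392 to 492 higher and 121 to 190 lower. On adding PAM to cGAMP + CpGB, 19 genes rose and 5 fell with no fold threshold in place of 6 and 3; lower genes numbered 0 with DESeq2, 1 without the filter and 5 with 12 thinned libraries, 24 thinned libraries gave 24 higher and 35 lower, and leaving out single libraries gave 4 to 7 higher and 0 to 3 lower. Genes above PAM + CpGB and cGAMP alone numbered 27 with library size alone, 22 with 24 libraries thinned to 61823 UMIs and 101 with no fold threshold, in place of 47, and 43 to 54 when single libraries were left out. Genes below both numbered 19 with RLE factors, 38 with library size alone, 5 without the filter, 24 thinned and 18 with no fold threshold, in place of 11, and 3 to 10 when single libraries were left out. Three-way interaction genes numbered 43 with DESeq2 and 119 in a fit of 24 libraries, in place of 68, and 48 to 105 when single libraries were left out (105 without CpGB replicate 1); in the thinned fit 38 were higher and 32 lower at 2-fold in place of 57 and 9. Differing effects numbered 492 to 611 for CpGB, 140 to 210 for cGAMP and 351 to 390 for PAM when single libraries were left out. The cause of these moves was not tested.

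Replicate numbers did not pair the libraries: same-numbered libraries of different groups had deviations correlated at -0.017 to 0.047 (18 pairs, median 0.011), and different-numbered ones at -0.039 to 0.033. With the replicate block the calls were 449 higher and 228 lower for cGAMP, and 6 higher and 3 lower for PAM. At 50 CPM or more, 1135 of 3033 genes had an interval within a 2-fold change for cGAMP (median SE 0.343, median absolute change 0.494), against 1924 of 2813 for PAM (0.305 and 0.206).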

Other observations

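Single genes of cell death, uptake and energy metabolism were called on adding cGAMP to PAM + CpGB, in shares near those over all genes for uptake and glycolysis. Of 16 death and survival genes, 3 were called higher, where 9.43% of all genes were: Mlkl, the executioner of necroptosis (2.11), the proapoptotic Bcl2l11 (1.78) and the inflammatory caspase gene Casp4 (1.29). The Bcl2l11 call was lost without PAM + CpGB replicate 2 (adjusted p = 0.0507). Of 17 scavenger, lectin and Fc receptors, 2 were called higher, the IgG receptors Fcgr1 (1.74) and Fcgr4 (1.39), and 1 lower, the lectin Clec4a2 (-1.64); 4 were lower with library size alone. Fcgr4 passed in the opposite direction on adding PAM to cGAMP + CpGB (-0.81). In the glycolysis and hypoxia list, 2 of 20 were called higher and none lower, 15 of 20 had a negative value and the median was -0.34. The hexokinase Hk1 rose from 19.1, 22.2 and 8 CPM to 82.4, 59 and 87 CPM (2.16) and Pfkp rose by 1.35, while the glycolytic enzymes Aldoa (-0.54) and Gapdh (-0.52) passed downward without the fold threshold. Of 4 tested cell cycle genes, Pcna was called higher (1.56) and the tubulin gene Tubb5 lower (-1.39), where 9.43% and 4.77% of all genes were.

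The pairs that contain cGAMP were also compared with each other. PAM + cGAMP had 21 genes higher and 4 lower than cGAMP + CpGB (0.445% and 0.0847% of those tested), with 11 calls in all without cGAMP + CpGB replicate 2, 15 without PAM + cGAMP replicate 2 and 16 with DESeq2. The higher genes included U90926 (1.95), Inhba (1.81), the prostaglandin E synthase Ptges (1.43), Sgk1 (1.14) and Fabp4 (1.16), and the lower ones Il12b (-1.60) and Clec4a1 (-2.14). Il12b was at 185, 123 and 68.4 CPM with PAM + cGAMP, 637, 275 and 245 CPM with cGAMP + CpGB and 381, 136 and 156 CPM in the triplet, whose values overlap both. Inhba was at 829, 704 and 684 CPM with PAM + cGAMP, 238, 242 and 155 CPM with cGAMP + CpGB and 541, 354 and 481 CPM in the triplet. Its triplet libraries all lay below those of PAM + cGAMP, as in 5.97% of tested genes. They all lay above those of cGAMP + CpGB, as in 7.1%. These genes were chosen after their values were seen.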
